A study of Mus musculus with 8 samples.

Results

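The genes described here build the coat of the mouse egg or act where sperm and egg bind: Zp1, Zp2, Zp3, Astl, Cd9, Cd81 and Izumo1r. They were listed by symbol, with earlier results of these data known. Of the 25574 genes in the table, 6 matched a listed symbol as written. Izumo1r was found under its older symbol Folr4, at the coordinates the annotation gives for Izumo1r, which makes 7 genes. All 7 passed the filter on low values, which asked for an average FPKM over 0.1 in either dataset and kept 14292 genes.

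The data came from SSP-profiling, a polysome fractionation adapted to small samples, in which a lysate is spun through a sucrose gradient and transcripts carrying many ribosomes sediment further. Each gradient held 200 oocytes at nuclear envelope breakdown (NEBD), taken from CD1 mice of 8 weeks that had received 5 IU of pregnant mare serum gonadotropin 46 h earlier. Fractions 2 to 5 of 10 were pooled as the non-polysomal (NP) dataset and fractions 6 to 10 as the polysomal (P) dataset, with 4 libraries each, numbered as replicates. Per the study, both pools were taken from the same 4 gradients. No source states that equal numbers mark the same gradient. All 8 libraries share the strain, the denuding, the culture for 180 min without the meiotic inhibitor IBMX and the exposure to 0.1 mg/mL cycloheximide for 10 min, which holds ribosomes on their transcripts. Both datasets thus describe a single stage and a pool of oocytes from several females, and no unfractionated RNA was analysed here.

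The mouse zona pellucida is a fibrous matrix of the glycoproteins ZP1, ZP2 and ZP3, which the growing oocyte makes and secretes. After fertilisation, cortical granules release ovastacin, the protease encoded by Astl, which cleaves ZP2 so that further sperm no longer bind. On the egg membrane, JUNO, the product of Izumo1r, is the receptor for sperm IZUMO1, and the tetraspanins CD9 and CD81 organise the membrane for fusion.

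The 3 zona genes share a feature that was not used to choose them, a very short 3′ untranslated region (UTR). In the main coding transcript of GENCODE vM21 the 3′ UTR had 13 bases in Zp3, 34 in Zp1 and 49 in Zp2. The median of 11713 tested genes with such a transcript was 891 bases, and 3.99% of them had 50 bases or fewer. The polyadenylation hexamer AATAAA began 9 bases after the end of the stop codon in Zp1 and 12 bases after it in Zp2. The sequences below are on the coding strand of GRCm38 and start with the last 9 coding bases before the stop codon, and capitals mark the hexamer.
Zp1, chr19:10914305-10914334, minus strand: atcagatattaaatggactcAATAAAccat
Zp2, chr7:120132371-120132400, minus strand: ttcaatcactgattggacttgcaAATAAAg
Zp3, chr5:135988600-135988624, plus strand: cttccgcAATAAAagaagaaactca
In Zp3 the hexamer overlaps the stop codon TAA, an arrangement found in 138 of the tested genes (1.18%). In a window of 30 bases placed as for Zp1 and Zp2, on the coding strand, AATAAA was present in 226 genes (1.93%). A match of letters is a description and not evidence that the hexamer is used.

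The other 4 genes had longer 3′ UTRs, of 333 bases in Izumo1r, 395 in Cd9, 560 in Cd81 and 876 in Astl, and their last hexamer began 20 to 35 bases from the transcript end. Their windows are shown for contrast with the zona genes, on the coding strand, with the hexamer again in capitals.
Astl, chr2:127357618-127357647, plus strand: aaaaggtagaAATAAAgttgggtgtttgct
Cd9, chr6:125460266-125460295, minus strand: tttgatacatAATAAAagattataacagtg
Cd81, chr7:143067890-143067919, plus strand: acagtcatttAATAAAggaggaaaaaaatc
Izumo1r, chr9:14900025-14900054, minus strand: tggtaccttcAATAAAaggctaggaaactc
Astl, with 49.4% of the tested genes having a shorter 3′ UTR, was close to the median, whereas at most 3.83% of the tested genes had a shorter one than any of the zona genes.

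**Figure D1:**
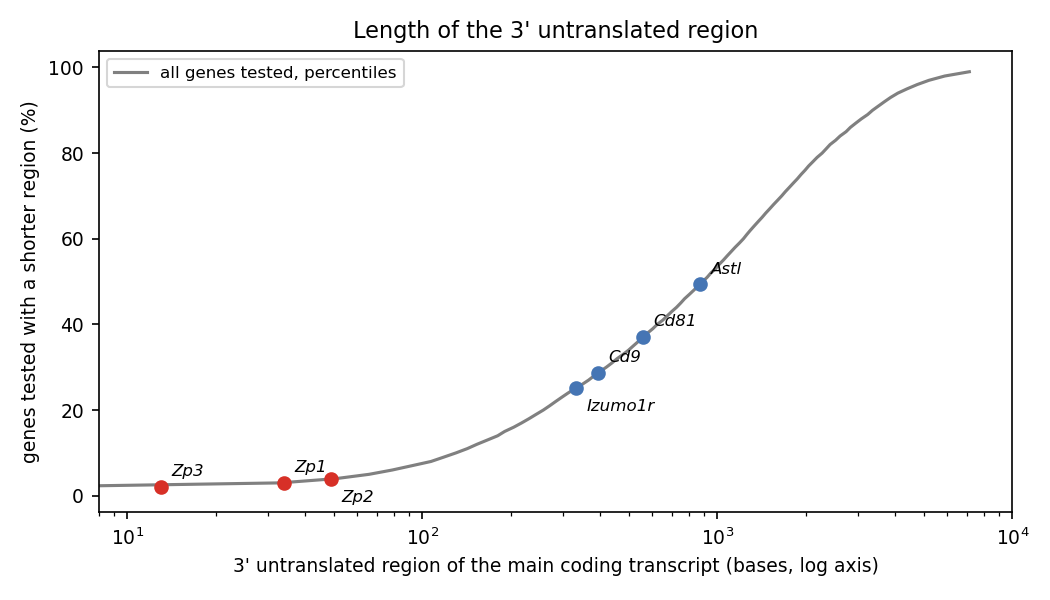
Length of the 3′ UTR of the main coding transcript (horizontal axis, bases, logarithmic) against the percentage of tested genes with a shorter one (vertical axis); the grey line joins the percentiles of 11713 genes, red points are the zona genes and blue points the other 4 genes. Zp3, Zp1 and Zp2 lie between 13 and 49 bases, and Astl at 876 bases lies near the median of 891.

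Values are FPKM, fragments scaled to gene length and to the reads of the library, as the authors deposited them. The gene length behind FPKM exceeded the main coding transcript unevenly. It was 2044 bases against 1228 in Cd9 and 2320 against 1291 in Izumo1r, but 1323 in both for Zp3. Levels of different genes can therefore be set side by side only roughly. The reads to which libraries were scaled, recovered from the steps between FPKM values, numbered 1299377 to 7594637 in NP and 2677946 to 4699328 in P. P replicate 4 stood apart with 9139 genes above 0, fewest of all libraries, and with the highest FPKM of Zp3, Astl and Cd81. For that reason values without it are given below. All 14 oocyte markers listed were tested, at a summed FPKM of 7840 to 14700 in NP and 8540 to 35200 in P. Markers of cumulus and granulosa cells, the follicle cells stripped from these oocytes, summed to 15.3 to 145 in NP and 20.5 to 64.0 in P, and 6 of 18, among them Has2, Ptx3 and Foxl2, were at 0 in every library. The highest were Cyp19a1, up to 75.2 in NP replicate 4 and 62.6 in P replicate 2, Nr5a2, up to 61.4 in NP replicate 3 and 35.9 in P replicate 3, and Cyp11a1, up to 46.4 in NP replicate 4 and 17.9 in P replicate 4. Of 6 blood and immune markers found in the table, 5 were at 0 throughout, and Cd68 reached 35.9 in NP replicate 1.

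The zona genes were among the most abundant transcripts of both datasets. Zp2 and Zp3 ranked between 5 and 127 of all genes in the 8 libraries and Zp1 between 43 and 606. Together the 3 genes made up 0.37% to 0.976% of all FPKM in NP and 0.561% to 1.70% in P, and these ranges overlapped.

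Zp2, the coat protein that ovastacin cleaves, had FPKM values of 1662, 1644, 941 and 1030.4 in NP replicates 1 to 4. In P replicates 1 to 4 it had 3865, 1319, 1307 and 2862. P replicates 1 and 4 exceeded every NP library, while P replicates 2 and 3 lay within the NP range. The mean was 1319 ± 387 (SD, n = 4) in NP and 2338 ± 1253 in P, a ratio of 1.77. On the scale of log2(FPKM + 1) the difference was 0.71 ± 0.56 (SE), which did not pass the threshold of 0.1 (limma, adjusted p = 0.65).

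Zp3, the other major building block of the coat, was the most abundant of the 7 genes by mean FPKM in both datasets. It had 2217, 2708, 432 and 1111 in NP, and 4766, 938, 778 and 7486 in P, each in the order of replicates 1 to 4. The P libraries split into a high pair, replicates 1 and 4, above all NP libraries, and a lower pair inside the NP range. The means of 1617 ± 1035 (SD, n = 4) in NP and 3492 ± 3239 in P gave a ratio of 2.16, and 1.34 without P replicate 4, which held 53.6% of the P sum. The log2 difference of 0.79 ± 0.82 (SE) was smaller than its standard error (limma, adjusted p = 0.704).

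Zp1, which cross-links the filaments of the coat, was lower in P by its mean. NP replicates 1 to 4 had FPKM values of 1031, 1344, 239.9 and 209. P replicates 1 to 4 had 549, 216, 134 and 518. NP replicates 1 and 2 stood above all P libraries, but NP replicates 3 and 4 fell among them. The means were 706 ± 571 (SD, n = 4) in NP and 354 ± 209.8 in P, and the log2 difference of −0.77 ± 0.73 (SE) did not pass (limma, adjusted p = 0.688). With each library centred on its median the difference was 0.19, the opposite direction, under a scaling that moved the median over all genes from −0.39 to 0.57. Because each dataset is scaled to its own reads, these values do not say how much RNA each pool held. Both pools came from the same oocytes, and in bulk libraries a difference shared by all oocytes and a larger one in some cannot be told apart.

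Astl was the member with the clearest separation of the datasets. Its FPKM was 357, 225, 216 and 296 in NP replicates 1 to 4. In P replicates 1 to 4 it was 1477, 438, 508 and 3328. All 4 P libraries lay above all 4 NP libraries, which held for 0.357% of the genes tested, and the NP libraries spanned 1.65-fold against 7.60-fold in P. Among all genes of a library, Astl held ranks 306 to 506 across NP libraries and 19 to 127 across P libraries. P replicate 4 held 57.9% of the P sum, and the ratio of the means was 2.95 without it and 5.26 with it. The log2 difference of 1.93 ± 0.66 (SE) had an unadjusted p of 0.0113 in limma and did not pass after adjustment over 14292 genes (limma, adjusted p = 0.416). Over the other settings its adjusted p ranged from 0.108 to 0.731, and its log2 difference from 1.36 to 2.89.

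Izumo1r, the gene of the sperm receptor JUNO, lay the other way. NP replicates 1 to 4 had FPKM values of 358, 349, 132 and 72.0. P replicates 1 to 4 had 79.0, 30.1, 31.5 and 99.95. NP replicates 1 to 3 exceeded every P library, and NP replicate 4 fell inside the P range, below P replicates 1 and 4. The means of 228 ± 147 (SD, n = 4) in NP and 60.1 ± 34.9 in P gave a 3.78-fold higher level in NP. The log2 difference was −1.80 ± 0.68 (SE), with an unadjusted p of 0.0195 in limma and an adjusted p of 0.425 that did not pass. It was negative under all 19 other settings, between −2.26 and −0.85, and lay 1.41 below the median over all genes of −0.39.

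Cd9, the tetraspanin of the egg membrane needed for fusion, was detected at a far lower level. Its FPKM was 52.9, 23.0, 14.5 and 9.28 in NP replicates 1 to 4. In P replicates 1 to 4 it was 45.4, 1.98, 7.37 and 47.0. P replicates 2 and 3 lay below every NP library, P replicates 1 and 4 lay inside the NP range, and P replicate 2 rested on 13 recovered reads. The means were 24.9 ± 19.5 (SD, n = 4) in NP and 25.4 ± 24.1 in P, and the log2 difference of −0.47 ± 0.95 (SE) did not pass (limma, adjusted p = 0.835). Its direction was not settled, since quantile normalization gave 0.03, centring on the median 0.49, scaling by the median of ratios 0.02 and leaving out P replicate 2 gave 0.32.

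Cd81, a tetraspanin related to Cd9, was near the limit of detection in 6 of 8 libraries. NP replicates 1 to 4 had FPKM values of 0.966, 0.339, 9.26 and 0. P replicates 1 to 4 had 0.656, 0.550, 0.198 and 24.5. NP replicate 3 and P replicate 4 stood far above the others, with 153 and 149 recovered reads, while the remaining libraries had 0 to 7. In NP replicate 4 a total of 3 reads would have given an FPKM of 0.174. The value of 0 there thus bounds the level at about that FPKM, by counting error only, and does not show absence. The log2 difference of 0.38 ± 1.06 (SE) did not pass (limma, adjusted p = 0.884), and it was −0.65 without P replicate 4 and −0.01 without NP replicate 4. The ratio of the means, 2.45 with all libraries, was 0.177 without P replicate 4 and 14.9 without NP replicate 3. The summed cumulus and granulosa markers were 97.7 in NP replicate 3 and 20.5 in P replicate 4. They were highest in NP replicate 4, at 145.4, where Cd81 was at 0. Their part in the Cd81 values was not tested.

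In the annotation, exons of Cd9 shared 218 of 2044 bases with Gm26728 and exons of Cd81 shared 104 of 2879 bases with R74862, both on the opposite strand. Reads from there cannot be told apart without strand.

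**Figure D2:**
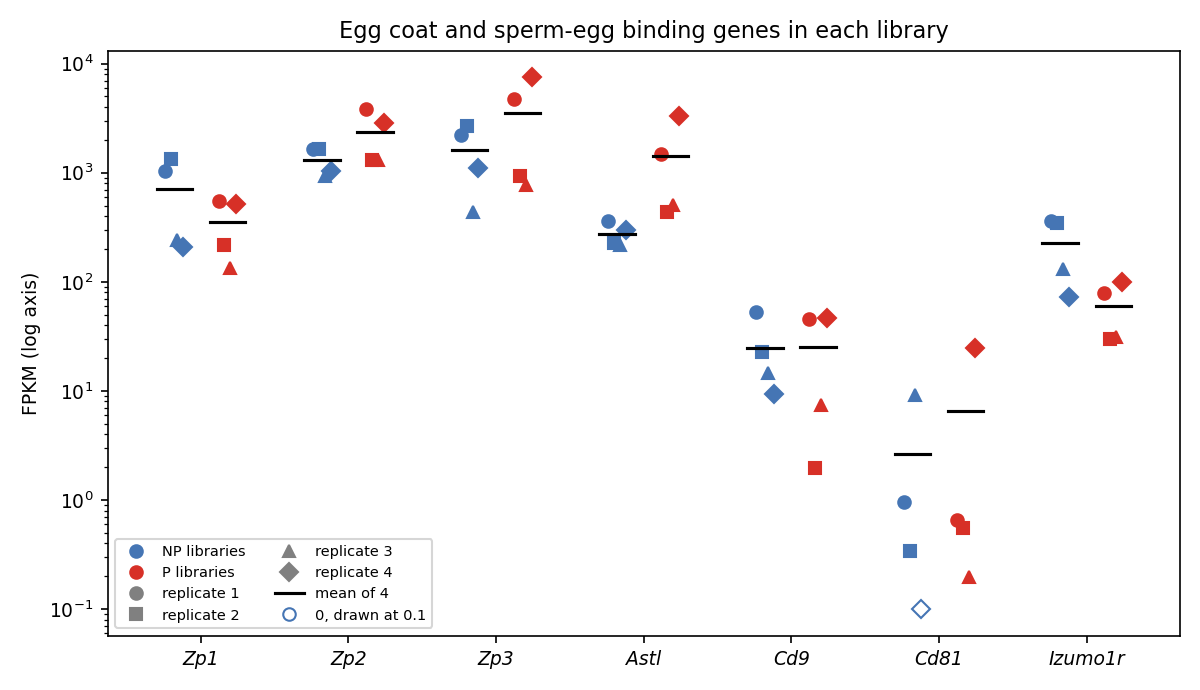
FPKM of the 7 genes (vertical axis, logarithmic) in each of the 4 NP libraries (blue) and 4 P libraries (red); the marker shape gives the replicate number, black bars are the means of 4 libraries and the open marker is a value of 0 drawn at 0.1. The red points of Astl, from 438 to 3328, all lie above its blue points, from 216 to 357, and the other genes overlap.

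By mean FPKM the order in NP was Zp3, Zp2, Zp1, Astl, Izumo1r, Cd9 and Cd81. In P it was Zp3, Zp2, Astl, Zp1, Izumo1r, Cd9 and Cd81, so that Astl and Zp1 exchanged places. Both orders depend on the gene lengths behind FPKM, and other lengths could change them. Most neighbours in these orders overlapped in their ranges over libraries. The exceptions were Izumo1r above Cd9 in NP (lowest 72.0 against highest 52.9), Cd9 above Cd81 in NP by a margin of 9.28 against 9.26, and Zp1 above Izumo1r in P (lowest 134 against highest 99.95).

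None of the 7 genes passed the threshold on the adjusted p in limma, and none did with voom on recovered reads. In limma, 0.021% of all genes tested passed, 3 in number and all lower in P. Without adjustment, Astl and Izumo1r had a p below 0.05, 2 of 7 genes beside 9.95% of all genes. In the direction of Astl, higher in P, that share was 0.476%, and in the direction of Izumo1r it was 9.47%. By mean FPKM, Zp3, Astl and Cd81 were more than 2-fold higher in P, as were 16.9% of all genes, and Izumo1r was more than 2-fold higher in NP, as were 40.6%. The count for P was 3 with all libraries, and without P replicate 4 the ratios of Zp3 and Cd81 were 1.34 and 0.177. The log2 differences of the 7 genes had a median of 0.38, beside −0.39 over all genes tested, with 4 positive and 3 negative.

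**Figure D3:**
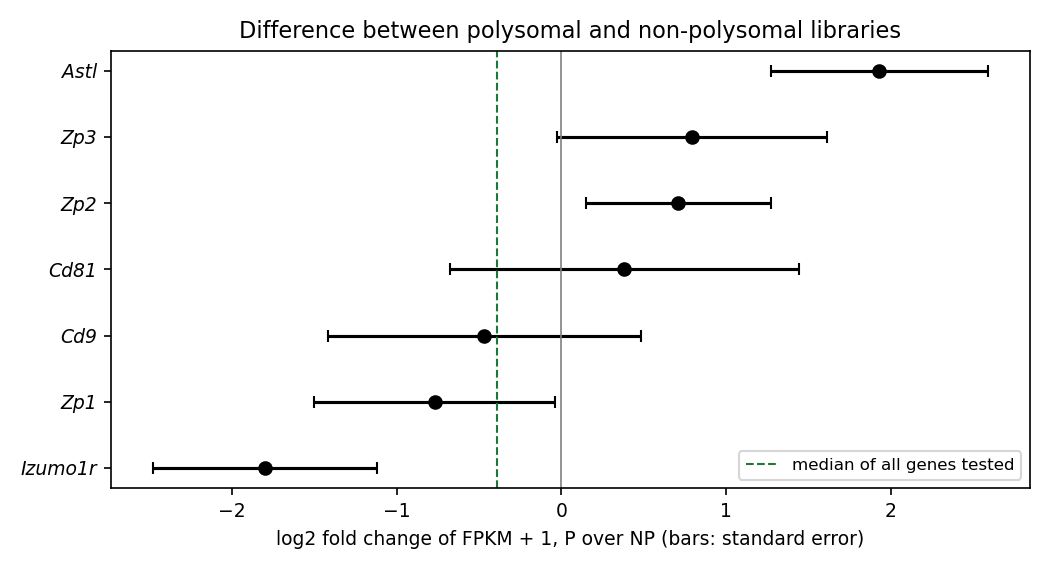
Log2 fold change of FPKM + 1, P over NP (horizontal axis; points are limma estimates and bars their standard errors), for the 7 genes; the dashed line marks the median of −0.39 over all genes tested. Astl at 1.93 and Izumo1r at −1.80 lie farthest from 0, on opposite sides, and none passed the adjusted threshold.

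Ratios of these genes within a library do not depend on how libraries are scaled to each other, so they show whether genes differ in how they fall between the pools. For 7 ratios the mean log2 ratio was compared by a 2-sided exact permutation test over 70 assignments, with Benjamini-Hochberg adjustment over the 7 ratios. The smallest possible p of this test is 0.029. It takes the libraries as independent, although both pools came from the same 4 gradients. A test within 4 pairs allows no p below 0.125, so no ratio could pass in it. Ratios of single libraries are given on the linear scale, of FPKM with 1 added. Of the 7 ratios, 3 passed an adjusted p of 0.1, namely Zp1/Zp2, Astl/Zp1 and Astl/Zp2. The ratios that hold Astl use the same Astl values as above and are not separate evidence on it. Nor is Astl/Zp1 a separate result, since it equals Astl/Zp2 divided by Zp1/Zp2. Once those did not overlap, in opposite directions, Astl/Zp1 had to reach the smallest p as well. It still counts as a ratio of its own in the adjustment.

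Among the zona genes, Zp1 was lower relative to Zp2 in P. The ratio Zp1/Zp2 was 0.621, 0.817, 0.256 and 0.204 in NP and 0.142, 0.165, 0.103 and 0.181 in P, each in the order of replicates 1 to 4. Every P library lay below every NP library, by a narrow margin to NP replicate 4, and the same held for 13.7% of all genes set against Zp2. The log2 ratio was −1.31 ± 0.97 (SD, n = 4) in NP and −2.79 ± 0.36 in P, a difference of −1.48 (exact permutation p = 0.0286, adjusted p = 0.0667). Zp1/Zp3 differed by a similar amount, −1.56, with 0.189 to 0.556 in NP and 0.0693 to 0.231 in P, but the libraries overlapped (exact permutation p = 0.0571, adjusted p = 0.1). Zp2/Zp3 spanned 0.607 to 2.18 across NP libraries and 0.382 to 1.68 across P libraries, with a log2 difference of −0.08 (exact permutation p = 0.914).

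Astl was higher relative to Zp1 and to Zp2 in P. Astl/Zp1 was 0.347, 0.168, 0.901 and 1.41 in NP replicates 1 to 4 and 2.69, 2.02, 3.77 and 6.42 in P replicates 1 to 4. No library overlapped, as for 0.399% of all genes set against Zp1, and the log2 difference was 2.70 (exact permutation p = 0.0286, adjusted p = 0.0667). Astl/Zp2, the protease transcript against that of its substrate, was 0.215, 0.137, 0.230 and 0.288 in NP and 0.382, 0.332, 0.389 and 1.16 in P. Again the datasets did not overlap, which was so for 4 genes (0.028%) set against Zp2 in this direction, and the log2 difference was 1.22 (exact permutation p = 0.0286, adjusted p = 0.0667). Without P replicate 4, whose ratio of 1.16 was the highest, the difference was 0.80. Astl/Zp3 overlapped between the datasets, with a difference of 1.14 (exact permutation p = 0.114, adjusted p = 0.16). None of the 14291 other genes tested was higher relative to Zp3 in all P than in all NP libraries.

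The calls did not hold with most libraries left out. None of the 7 ratios passed without NP replicate 1 or 2 or without any of the P replicates, with adjusted p values of the 3 ratios of up to 0.15. Datasets that do not overlap stay apart when a library is left out, while the test becomes smaller. Without NP replicate 1, Zp1/Zp2 kept its exact permutation p of 0.0286, with an adjusted p of 0.1. The losses thus do not show that the calls rest on those libraries. Without NP replicate 3, Astl/Zp2 did not pass (exact permutation p = 0.0571, adjusted p = 0.1). Astl/Zp3 passed in that setting (exact permutation p = 0.0286, adjusted p = 0.0667). Both pools came from the same 4 gradients, but no source states that equal numbers mark the pairs. With equal numbers taken as pairs, all 4 showed the direction of Zp1/Zp2, Astl/Zp1 and Astl/Zp2. Under any numbering, 16 sign flips of 4 pairs allow no p below 0.125, so none passed (exact permutation p = 0.125, adjusted p = 0.175). The 3 ratios kept their direction without each library in turn, with differences of −1.81 to −1.14 for Zp1/Zp2, 2.15 to 3.18 for Astl/Zp1 and 0.80 to 1.4 for Astl/Zp2. The ratio Cd9/Cd81 spanned 1.51 to 27.4 across NP libraries and 1.88 to 28.0 across P libraries and rests on the few reads of Cd81 (exact permutation p = 0.571, adjusted p = 0.667).

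Ratios of Izumo1r were computed after its values had been seen and are given without a test. Izumo1r/Zp2 was 0.0708 to 0.216 in NP and 0.0207 to 0.0353 in P. Izumo1r/Zp3 was 0.0656 to 0.306 in NP and 0.0135 to 0.0418 in P, and Izumo1r/Zp1 was 0.26 to 0.551 in NP and 0.143 to 0.241 in P. All 3 were lower in every P library than in every NP library, as were the ratios of 13.7% of all genes to Zp2, 4.35% to Zp3 and 0.441% to Zp1. Astl/Izumo1r, between the members farthest apart, was 0.645 to 4.07 in NP and 14.1 to 33.0 in P.

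**Figure D4:**
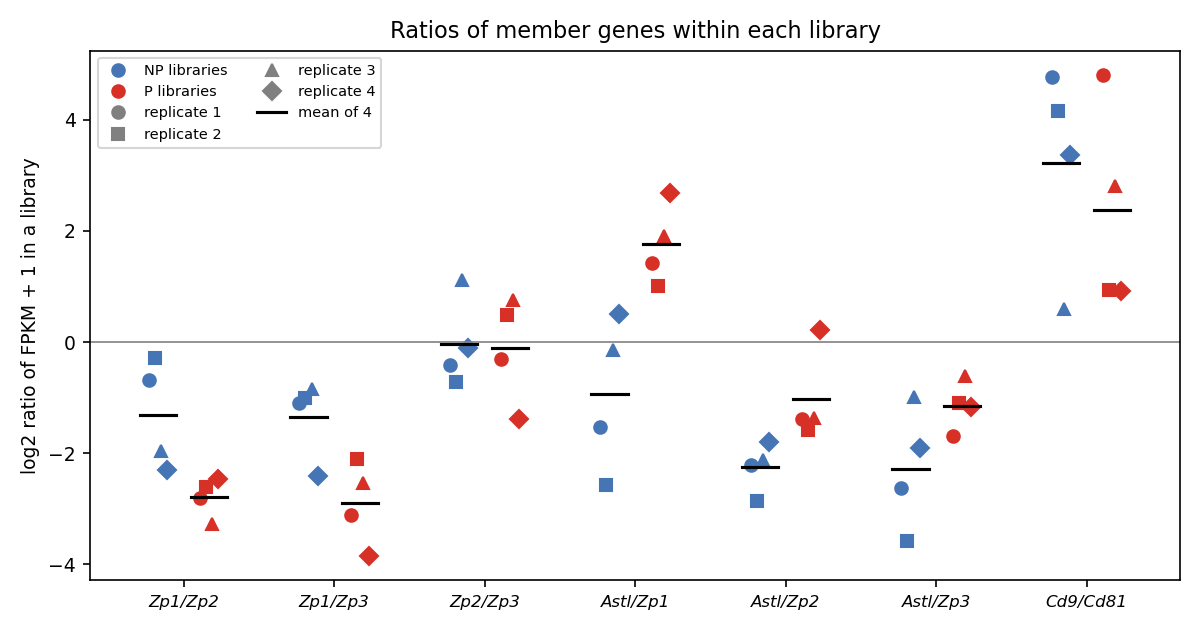
Log2 ratio of FPKM + 1 between pairs of genes (vertical axis) within each of 4 NP (blue) and 4 P (red) libraries; the marker shape gives the replicate and black bars are means of 4 libraries. Blue and red points do not overlap for Zp1/Zp2, Astl/Zp1 and Astl/Zp2, and they overlap for the other 4 ratios.

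Across the 8 libraries the genes varied together to different degrees. Pearson's r of log2(FPKM + 1) is given as a description, since the points share libraries and depth. It was 0.90 between Zp2 and Zp3, 0.82 between Zp2 and Astl and 0.87 between Zp1 and Izumo1r, but 0.07 between Zp1 and Astl and −0.25 between Izumo1r and Astl.

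Among 2427 genes whose average FPKM exceeded 50 in either dataset, the 3 genes most like each member were named by the same r over 8 libraries. For Zp2 they were Oas1d (0.97), Cops8 (0.944) and Gm5514 (0.935). For Zp3 they were E130306D19Rik (0.973), Tmem14c (0.956) and Dguok (0.948), and for Zp1 they were Gm6091 (0.958), Med22 (0.953) and Ubb (0.953). Astl was most like Nudcd3 (0.965), Stard7 (0.952) and Ube2g2 (0.936), all with a higher mean in P. Izumo1r was most like Ppia (0.96), 4930471M23Rik (0.945) and Fsd1 (0.942), all with a higher mean in NP. The genes most like Cd9 were Mcm2 (0.949), Cdk1 (0.937) and Pttg1ip (0.933), and those most like Cd81 were Rab7 (0.968), Tmf1 (0.923) and Ccdc6 (0.922), the latter resting on 2 libraries with more than a few reads.

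Genes that work beside these 7 were examined as lists, and no listed gene passed the adjusted threshold in limma, where 0.021% of all genes did. Beside the 7 genes, 127 were tested, of which 1 was higher and 10 were lower in P at an unadjusted p below 0.05, thresholds that 0.476% and 9.47% of all genes passed. With voom on recovered reads Zp3r and Pigh passed, both lower in P, where 188 of 14291 genes passed in all. All listed genes with a mean above 10 whose libraries did not overlap, other than Astl, were higher in NP, the direction in which 5.92% of all genes did not overlap.

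Of the transcription factors and processing enzymes of zona proteins, with other genes of the ZP domain, 16 were tested and 14 had a negative log2 difference, the direction of 71.4% of all genes tested. The list median was −0.46 beside −0.39 over all genes. Nobox, a transcription factor of the oocyte, had FPKM values of 406, 591, 308 and 560 in NP and 109, 63.2, 46.6 and 241 in P, with no overlap. Its log2 difference was −2.25 ± 0.60 (SE), with an unadjusted p of 0.00226 and an adjusted p of 0.376 in limma. Figla, the transcription factor that activates the zona genes, had 14.9, 11.2, 17.4 and 7.81 in NP and 1.12, 0, 0.889 and 3.44 in P. It did not overlap either, with a log2 difference of −2.69 ± 0.84 (SE) and an adjusted p of 0.405 in limma. Furin, a convertase that cleaves secreted precursors, overlapped at 7.99 to 19.3 in NP and 4.03 to 84.3 in P, and so did Lhx8 at 25.9 to 104 and 6.56 to 69.0. Thus Zp2 and Zp3 had higher means in P and Zp1 a lower one, all with overlap. Transcripts of Nobox and Figla were higher in every NP library, as were 5.92% of all genes. None of these genes passed the adjusted threshold in limma.

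Genes of cortical granules and exocytosis, which deliver ovastacin, had a median of −0.30 over 20 tested, 8 positive and 12 negative. Rab3a, a small GTPase of secretory vesicles, showed the strongest difference among them, with 61.6, 103, 19.3 and 56.8 in NP and 7.17, 3.78, 1.11 and 0 in P. No P library reached the lowest NP library, and the log2 difference was −4.12 ± 0.86 (SE) with an unadjusted p of 0.000276 and an adjusted p of 0.344 in limma. The 3 most abundant genes of the list overlapped between the datasets. Myo5b, a vesicle motor, had 115 to 408 in NP and 142 to 221 in P apart from P replicate 2 at 719.7. Calr, a chaperone, had 149 to 209 in NP and 50.9 to 355 in P, and Rab11a had 90.6 to 227 and 17.6 to 191. Lgals3 did not overlap either, at a mean of 0.826 in NP and 0 in all P libraries.

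Tetraspanins other than Cd9 and Cd81 were led by Tspan14, at a mean of 236 in NP and 195 in P. The list of 31 had 20 members tested, with a median of −0.32. Tspan3 was higher in every NP library, at 40.7 to 80.8 beside 13.1 to 40.0 in P, a margin of less than 1 FPKM, with a log2 difference of −1.32 ± 0.61 (SE) and an adjusted p of 0.496 in limma. Tspan9 had 30.3 to 100.2 in NP and 29.0 to 91.2 in P. Tspan31 had 13.1 to 112 in NP, and in P it had 104.5 in replicate 2 and 0.246 to 18.8 in the others, so that both genes overlapped.

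Other partners on the egg membrane, among them integrins and complement regulators, had a median of −0.13 over 16 tested with no gene whose libraries did not overlap. Bsg had 30.4 to 206 in NP, and in P it had 453 in replicate 4 and 14.4 to 68.2 in the others, with a log2 difference of −0.85 ± 0.95 (SE) and an adjusted p of 0.721 in limma. Itga9 had 27.5 to 123 in NP and 32.7 to 160.1 in P, and Cd55 had 37.4 to 106 and 11.5 to 60.9. Enzymes that build the GPI anchor, by which JUNO is held on the membrane, had a median of −0.66 over 26 tested, 18 of them negative, beside 71.4% of all genes. Pigh, which acts in the earliest step of the anchor, was higher in every NP library at 6.88 to 23.9, beside 0 to 1.99 in P, with a log2 difference of −3.09 ± 0.87 (SE) and an adjusted p of 0.376 in limma. Pign also did not overlap, at means of 5.48 and 1.42. Pigf, Pigo and Piga overlapped. Pigf had 40.6 to 116 in NP and 20.4 to 108 in P, while NP replicate 4 was the highest library for both Pigo (80.8, others 5.12 to 23.4) and Piga (65.9, others 2.70 to 19.0).

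Of the astacin family of metalloproteases, to which Astl belongs, 4 of 6 were tested, and Astl was the only one with a positive difference. Mep1b had 4.61 to 46.8 in NP and 0 to 15.7 in P and Tll1 had 1.53 to 13.0 and 0.365 to 5.19, both overlapping. The difference between Astl and the other family members was not tested. Of 18 genes for the sperm side of binding found in the table, 10 were at 0 in all libraries and 7 were tested. Zp3r was higher in every NP library, at 1.09 to 25.1 beside 0 to 0.352 in P (log2 difference −2.57 ± 0.91, SE, adjusted p = 0.416 in limma). The other genes of the list with the highest means, 4930451I11Rik, Spam1 and Tmem81, overlapped, and Spam1 reached 130.2 and Tmem81 48.1 in single P libraries.

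The 14 oocyte markers had a median log2 difference of 0.20, with 8 positive and 6 negative. Of these markers, 2 were higher in every NP library, Nobox and Figla, and none in every P library. The 3 with the highest means were Gdf9, Bmp15 and Padi6. Gdf9 and Bmp15 encode growth factors that the oocyte secretes as it does the zona proteins. Gdf9 had a mean of 1923 ± 832 (SD, n = 4) in NP and 5879 ± 4635 in P, and Bmp15 had 1331 ± 412 and 2490.0 ± 1198, and both overlapped. Their log2 differences of 1.30 ± 0.69 and 0.82 ± 0.54 (SE) did not pass, with adjusted p = 0.533 and 0.61 in limma. Padi6, a protein of the cytoplasm, had 1107 ± 314 and 2473 ± 1917 and overlapped too.

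**Figure D5:**
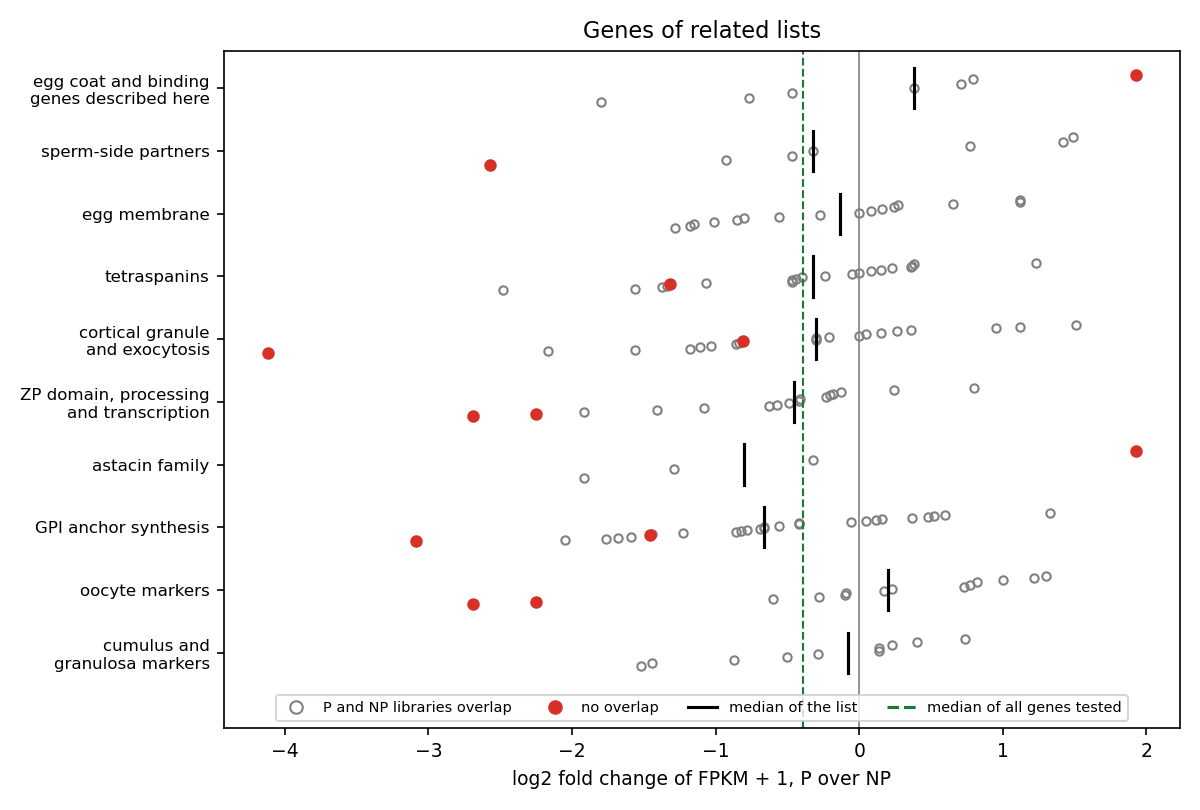
Log2 fold change of FPKM + 1, P over NP (horizontal axis), of the tested genes of each list (rows); filled red points are genes whose P and NP libraries do not overlap, black bars are list medians and the dashed line is the median of −0.39 over all genes tested. Astl, drawn in 2 lists, is the sole red point right of 0, and Rab3a at −4.12 lies farthest left.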

How the data were processed

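RNA was depleted of rRNA, reverse transcribed with random and oligo(dT) primers and amplified. Per the submitters' notes and methods, Trim Galore 0.4.1 removed adapters, HISAT2 2.0.5 aligned reads to GRCm38, and Seqmonk 1.40.0 gave the gene values. They deposited FPKM values of 25574 genes in 8 libraries, normalized for gene length and reads. Deposited means, ratios of datasets and DESeq2 fold changes, p values and FDR values were not used.

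Differences were tested 2-sided over 14292 genes averaging above 0.1 in either dataset. This used limma 3.58.1 (lmFit, then eBayes with a trend), a pseudocount of 1 before log2, Benjamini-Hochberg adjustment across these genes and a threshold of 0.1. A fold change on this scale understates that of low genes. The script was tested on simulated data. Reads were recovered from steps between FPKM values, to within at most 0.1 of a read. For 8609 genes, among them Zp2, Cd81 and Izumo1r, the gene length was searched for and not taken from the annotation. In every library the recovered reads summed to more than the reads it was scaled to, as with 5389942 against 3192245 in NP replicate 1. Recovered reads are therefore estimates, and the reason was not tested. A floor of 3 reads covers counting error only, since amplified reads are not independent molecules. FPKM is not a count, so no count model was fitted to it.

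Genes, gene lists, ratios and tests were chosen with earlier results of these data known. The 3′ UTR comparison was added after the values were seen. Named were the 7 genes, up to 3 genes per list with the highest mean, listed genes called or not overlapping with a mean above 10 in a dataset, and the 3 genes most like each member. Lgals3 and Pign lie outside it and were picked with their values in view. Replicates within a dataset were independent gradients per the study's methods, while NP and P libraries came from the same gradients. The first choice of test took all libraries as independent. Other settings tried were pseudocounts, filters, scalings, weights, a replicate block, voom on recovered reads and leaving out each library. R 4.3.3, Python 3.11.15, pandas 2.3.3, numpy 2.4.6 and scipy 1.17.1 were used, with matplotlib 3.10.9 for figures.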

Additional observations from a re-analysis of the deposited data

Results flagged for a closer look

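The FPKM or log2 ratios of these genes in 1 dataset formed 28 groups of 4 values. In 4 groups a library lay farther from the others than Dixon's limit of 0.829 of the range. Normally distributed values pass that limit in about 1 of 20 groups. The FPKM values were taken without a logarithm, so that rate need not hold for them. Cd81 had an FPKM of 9.26 in NP replicate 3, beside 0 to 0.966 in the other NP libraries. In P replicate 4 Cd81 had 24.5, beside 0.198 to 0.656 in the other P libraries. The log2 ratio Zp1/Zp3 was −2.40 in NP replicate 4, beside −1.10 to −0.85 in the others. The log2 ratio Astl/Zp2 was 0.22 in P replicate 4, beside −1.59 to −1.36 in the others.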

How the results depend on the processing

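None of the 7 genes passed the adjusted threshold under any of the 19 other settings, and 126 of 133 of their log2 differences kept their direction. The exceptions were Zp1 with libraries centred on their median (0.19), Cd9 with quantile normalization (0.03), that centring (0.49), scaling by the median of ratios (0.02) or without P replicate 2 (0.32; range −1.02 to 0.32 with each library left out), and Cd81 without P replicate 4 (−0.65) or NP replicate 4 (−0.01; range −0.65 to 1.11). The ratio Zp2/Zp3 ranged from −0.37 to 0.34 and turned without NP replicate 3 (0.30) or P replicate 4 (0.34). The causes were not tested.

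Over all genes, 3 passed in the first choice. The number was 5 with a pseudocount of 0.1 or a mean FPKM above 1, and 0 with a pseudocount of 10, no filter, quantile normalization, centring on the median or scaling by the median of ratios. Without a trend it was 20, with voom on recovered reads 188, and with each library left out 0 to 5. Of the listed genes 0 passed, and 2 with voom, Zp3r (−5.44, adjusted p = 0.0786) and Pigh (−5.42, adjusted p = 0.0832), a setting chosen for the lists after seeing the data. Within-library ratios passing numbered 3 with either pseudocount and 0 to 4 with each library left out.

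Same-numbered libraries deviated together with correlations of 0.139, 0.0518, 0.251 and 0.155 over 11374 genes, and every library correlated best with its own number except NP replicate 2, which did so with P replicate 1. With the replicate block, 1 gene passed over all genes, 0 of the 7 and 0 of the ratios, where 4 pairs allow no p below 0.125, a setting added for the ratios after seeing the data. Depth limits Cd81 most, with 0 to 7 reads in 6 libraries.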
